A study of Mus musculus with 24 samples.

Results

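The Fc receptor genes described here are 7 genes with a probe on the array: Fcgr1, Fcgr2b, Fcgr3, Fcgr4, Fcer1g, Fcgrt and Fcrla. They were chosen by symbol, and their levels were read on 22 one-colour Agilent arrays of CD11b+ cells, a marker of myeloid cells. The arrays named 20659 genes by symbol and held 32451 genes or transcripts in all. Each member had 1 probe: A_55_P2008740 for Fcgr1, A_51_P130095 for Fcgr2b, A_52_P408757 for Fcgr3, A_51_P181517 for Fcgr4, A_51_P405476 for Fcer1g, A_51_P161890 for Fcgrt and A_51_P154485 for Fcrla. The probe of Fcgr2b was printed on 10 spots of every array, and the other members on 1 spot each. All 7 members were well above background on all 22 arrays.

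The cells came from spleen and bone marrow of male mice on a Balb/C background, 10 weeks old per the study's methods. The mice were wild type (WT), HDC-KO, which lack histidine decarboxylase, the enzyme that makes histamine, or STAT6-KO, which lack a transcription factor of interleukin-4 signalling. For each genotype there were control mice and mice at 1, 2 and 4 weeks after a myocardial infarction (MI). Whether control mice had a sham operation is not given in the labels. Each of the 24 conditions had 1 array of RNA from cells of 5 pooled mice, so no condition had a replicate and nothing here measures how mice of one condition varied. One array of each knockout, HDC-KO control in spleen and STAT6-KO at MI 1 week in bone marrow, was incomplete, held 0 spots of the members and was not used. Each slide carried 1 genotype of 1 tissue, with the time points in a fixed order, so genotype within a tissue cannot be told apart from slide, nor time from position on the slide. Spleen and bone marrow also lay on separate slides. The pairs of a genotype thus all compare 1 spleen slide with 1 bone marrow slide and are not independent of slide.

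Fc receptors bind the constant part of antibodies and tie antibody to the response of the cell that carries them. Fcgr1 (CD64), Fcgr3 (CD16) and Fcgr4 are activating receptors for immunoglobulin G, and they signal through Fcer1g, the common gamma chain, which carries the tyrosine motif that recruits the kinase Syk. Fcgr2b (CD32) is the inhibitory receptor and acts through the lipid phosphatase Inpp5d. Fcgrt is the heavy chain of the neonatal Fc receptor, which pairs with beta-2 microglobulin and returns immunoglobulin G from endosomes to the cell surface and blood. Fcrla is an intracellular relative of the Fc receptors found in B cells.

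A level is the log2 signal of a probe minus the 75th percentile of its array, so a level of 0 is the brightness of that percentile. Levels are compared for 1 probe between arrays, and not between probes. For whole-series context, the 75th percentile ranged from 928 to 2461 in spleen and from 963 to 1780 in bone marrow. The share of spots well above background was lowest on the WT MI 1 week array in both tissues, at 70.4% and 71.3%. The other arrays lay at 75.1% to 79.0% in spleen and at 75.2% to 79.8% in bone marrow. Whether this bears on the levels of those WT MI 1 week arrays was not tested. Hdc was at 1.67 to 1.93 in HDC-KO spleen against 4.32 to 4.83 in WT spleen, and at 2.32 to 2.78 against 4.75 to 5.51 in bone marrow. Stat6 was at 1.94 to 2.44 in STAT6-KO spleen against 2.38 to 2.90 in WT spleen, which overlap, and at 1.76 to 2.34 against 2.78 to 3.70 in bone marrow. Whether either probe lies in the deleted part of its gene was not tested. Both CD11b integrin genes, Itgam and Itgb2, were well above background on all 22 arrays, and both were lower in spleen, Itgam by 1.47 (SE 0.14, adjusted p = 5.418e-06, limma) on the log2 scale.

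Promoter sequence was read for the members because several are textbook targets of interferon and of the myeloid and B cell factor PU.1. Promoters from RefSeq (GRCm38.p6) were found for 7 of 7 members, and the 250 bases before each start were searched on both strands for 4 motifs: TTC and GAA with a gap of 3 or of 4 bases, the cores of STAT sites, GAAA repeated after a gap of 2 bases, the core of interferon-stimulated elements, and GAGGAA, the core of PU.1 sites. Of all 32851 promoters in that table, 7.02% held the first with a gap of 3, 5.85% with a gap of 4, 2.98% held the GAAA repeat and 23.3% held GAGGAA. No matches overlapped in the members. Of the 8 promoters listed for the members, 5 held a match, among them both of Fcgr3. All 5 held GAGGAA, and the share of all promoters with a match to any of these motifs was not counted. The nearly identical second promoter of Fcgr3 is left out, and the other 4 are shown, each 5′ to 3′ on the strand of its gene and ending at the base before the start, with the matched bases in capitals.
Fcgr1 at chr3:96293970-96294219, minus strand: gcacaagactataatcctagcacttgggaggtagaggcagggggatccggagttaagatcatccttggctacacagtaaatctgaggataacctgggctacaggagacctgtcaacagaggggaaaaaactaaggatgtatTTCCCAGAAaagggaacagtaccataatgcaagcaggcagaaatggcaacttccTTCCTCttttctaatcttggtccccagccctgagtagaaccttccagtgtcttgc
Fcgr3 at chr1:171059404-171059653, minus strand: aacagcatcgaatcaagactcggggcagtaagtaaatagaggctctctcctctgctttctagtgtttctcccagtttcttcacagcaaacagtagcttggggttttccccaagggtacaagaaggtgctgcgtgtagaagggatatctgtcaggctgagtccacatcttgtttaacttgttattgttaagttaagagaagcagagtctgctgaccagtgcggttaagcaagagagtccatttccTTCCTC
Fcgr4 at chr1:171018676-171018925, plus strand: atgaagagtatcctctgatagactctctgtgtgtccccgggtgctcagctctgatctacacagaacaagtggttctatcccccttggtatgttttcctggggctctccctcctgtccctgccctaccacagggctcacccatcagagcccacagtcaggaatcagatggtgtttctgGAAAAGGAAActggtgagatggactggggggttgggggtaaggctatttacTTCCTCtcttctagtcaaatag
Fcrla at chr1:170927584-170927833, minus strand: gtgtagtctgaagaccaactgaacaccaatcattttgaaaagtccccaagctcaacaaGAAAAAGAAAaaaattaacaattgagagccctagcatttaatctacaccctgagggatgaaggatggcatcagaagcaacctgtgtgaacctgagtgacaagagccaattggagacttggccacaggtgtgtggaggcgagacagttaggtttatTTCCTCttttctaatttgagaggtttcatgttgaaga

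Fcgr1 held TTCCCAGAA, the STAT core with a gap of 3, that began 109 bases before the start, and GAGGAA read on the other strand 55 bases before it. Fcgr4 held GAAAAGGAAA 73 bases and Fcrla GAAAAAGAAA 192 bases before the start, and both held GAGGAA on the other strand, at 22 and 37 bases. Fcgr3 held GAGGAA on the other strand 6 bases before the start shown and 15 bases before its other start. Fcgr2b, Fcer1g and Fcgrt held no match to the 4 motifs in this window. These matches are letters in a window, not measured binding.

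The first question was how the Fc receptor genes differed between spleen and bone marrow. The 10 conditions complete in both tissues were compared as pairs of the same genotype and time. Fcgrt, Fcrla and Fcgr1 were higher in spleen, Fcer1g and Fcgr3 were lower in spleen, and Fcgr2b and Fcgr4 did not pass the test. Of the 7 members, 5 were called at an adjusted p under 0.05, 3 higher and 2 lower. Over all 27659 genes tested, 54.5% were called, 22.4% higher and 32.1% lower, so a share of this kind was common on these arrays and is no property of the members. With slide as a random block 4 members were called, beside 46.7% of all genes. The median difference in the fit on pairs was 0.17 for the members and -0.17 for all genes. In bulk samples fewer cells of a type and less RNA per cell cannot be told apart.

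**Figure D1:**
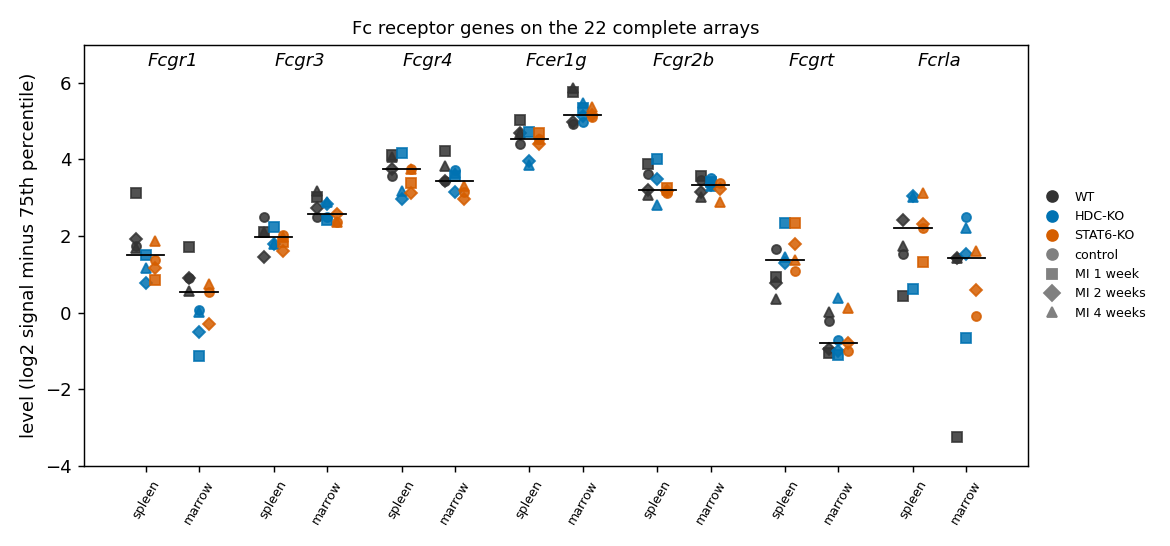
Levels (log2 signal minus the 75th percentile of the array) of the 7 Fc receptor genes in spleen and bone marrow. Each point is 1 array, colour gives genotype, shape gives time after MI, and the line is the median of 11 arrays; Fcgrt in spleen has a median of 1.38 against -0.80 in bone marrow, and 1 bone marrow point of Fcrla, WT MI 1 week, lies at -3.26.

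Fcgr1, the high-affinity activating receptor, ranged from 0.77 to 3.11 on the 11 spleen arrays, with a median of 1.51. On the 11 bone marrow arrays it ranged from -1.13 to 1.71, with a median of 0.53. The highest array in both tissues was WT MI 1 week, and the ranges overlap. Within pairs, however, Fcgr1 was higher in spleen in 10 of 10, by 0.84 to 2.64. The mean difference was 1.29 (SE 0.16, adjusted p = 3.66e-05, limma), a 2.44-fold higher signal. The mean of the pairs was 1.1 in WT (SD 0.24, n = 4), 1.69 in HDC-KO (SD 0.83, n = 3) and 1.14 in STAT6-KO (SD 0.32, n = 3).

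Fcgr3, a low-affinity activating receptor, was at 1.46 to 2.49 in spleen (median 1.98) and at 2.37 to 3.17 in bone marrow (median 2.58). Only the WT control array of spleen, at 2.49, reached into the range of bone marrow. Fcgr3 was lower in spleen in 9 of 10 pairs, and the WT control pair differed by 0.00. The mean difference was -0.73 (SE 0.15, adjusted p = 0.001108, limma), a 1.66-fold lower signal in spleen. The other activating receptor, Fcgr4, was at 2.96 to 4.17 in spleen and at 2.96 to 4.23 in bone marrow, ranges that nearly coincide. Its difference was 0.17 (SE 0.12, adjusted p = 0.2644, limma), with 7 of 10 pairs higher in spleen.

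Fcer1g, the shared signalling chain, was at 3.86 to 5.03 in spleen (median 4.53) and at 4.92 to 5.87 in bone marrow (median 5.17). It was lower in spleen in 10 of 10 pairs, by 0.28 to 1.62, and the WT MI 1 week array of spleen alone reached the range of bone marrow. The mean difference was -0.83 (SE 0.13, adjusted p = 0.0001939, limma), a 1.78-fold lower signal. Fcer1g and Fcgr3 were both lower in spleen, while Fcgr1, which uses the same chain, was higher. Fcgr2b, the inhibitory receptor, was at 2.81 to 4.02 in spleen and at 2.90 to 3.56 in bone marrow. Its difference was 0.09 (SE 0.11, adjusted p = 0.5564, limma) and 7 of 10 pairs were higher in spleen. The SD between the 10 spots of its probe was 0.044 to 0.116 per array (median 0.081), so spot error was small beside the spread of Fcgr2b between arrays.

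The change of the activating genes was also set against that of the inhibitory gene in the same pair. Relative to Fcgr2b, Fcgr1 was higher in spleen by 1.20 (SD 0.41) in 10 of 10 pairs. Fcgr3 was lower by 0.82 (SD 0.44) and Fcer1g lower by 0.92 (SD 0.37), each in 10 of 10 pairs. Fcgr4 differed from Fcgr2b by 0.08 (SD 0.35), with 7 pairs above and 3 below. These are differences between changes and say nothing of which receptor was more abundant.

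Fcgrt, the neonatal Fc receptor chain, had the largest tissue difference of the members. It was at 0.36 to 2.35 in spleen (median 1.38) and at -1.1 to 0.39 in bone marrow (median -0.80), and the ranges met only between WT spleen and HDC-KO bone marrow at 4 weeks. Fcgrt was higher in spleen in 10 of 10 pairs, by 0.35 to 3.42, with a mean of 1.87 (SE 0.25, adjusted p = 5.526e-05, limma), a 3.65-fold higher signal. Of all genes tested, 6.58% had a larger difference. B2m, its partner, did not pass the test (-0.18, SE 0.12, adjusted p = 0.2214, limma).

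Fcrla was at 0.44 to 3.13 in spleen (median 2.21) and at -3.26 to 2.50 in bone marrow (median 1.42), with wide overlap. It was higher in spleen in 10 of 10 pairs, by 0.10 to 3.69. The WT control pair differed least and the WT MI 1 week pair most. The mean difference was 1.43 (SE 0.30, adjusted p = 0.001507, limma), a 2.69-fold higher signal. Without the 2 MI 1 week pairs it was 1.16 (adjusted p = 0.002862), and with slide as a random block the call was lost (1.43, adjusted p = 0.0841). The standard errors of Fcgrt, Fcrla and Fcgr1 are such that the order of their differences is not settled by these pairs.

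**Figure D2:**
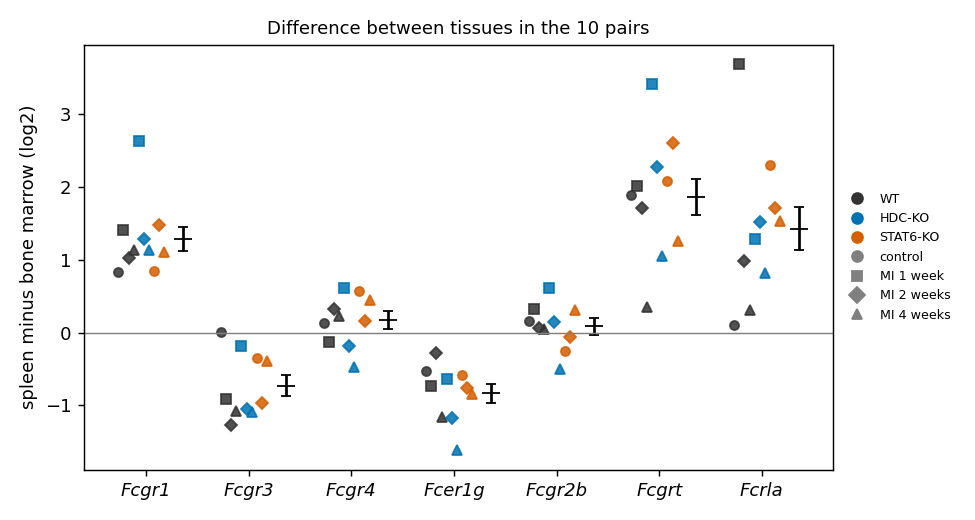
Difference between spleen and bone marrow (log2) of each Fc receptor gene in the 10 pairs of the same genotype and time. Points are pairs, coloured by genotype and shaped by time, and the black bar to the right of each gene is the limma estimate with its standard error; Fcgrt (1.87), Fcrla (1.43) and Fcgr1 (1.29) lie above 0 and Fcer1g (-0.83) and Fcgr3 (-0.73) below it.

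Markers of other cell types moved with tissue too, beside 22.4% of all genes called higher in spleen and 32.1% lower. Of the macrophage and monocyte markers, 9 of 9 were higher in spleen, with a summed signal (in units of the 75th percentile) of 94.2 to 169 in spleen and 43.8 to 67.4 in bone marrow. Mertk, a receptor for dying cells, was higher by 2.58 and Adgre1 (F4/80) by 2.03. Of the red pulp macrophage markers, 5 of 6 were higher, Spic by 3.72. Of the neutrophil granule genes, 7 of 7 were lower, with a summed signal of 105 to 227 in spleen and 264 to 470 in bone marrow, and Elane fell by 3.62. Of the B cell markers, 7 of 8 were higher and Cd22 was lower, with a summed signal of 22.9 to 84.7 in spleen and 4.60 to 28.7 in bone marrow. All basophil and mast cell markers tested (6 of 6) were lower, among them Fcer1a and Ms4a2, the other chains of the immunoglobulin E receptor that contains Fcer1g. Markers of T cells (4 of 5), natural killer cells (4 of 5), plasma cells (3 of 4), dendritic cells (4 of 6) and erythroid cells (2 of 5) were higher, 1 of the T cell markers was lower, and 4 of 6 genes of mature neutrophils were lower. Of 10 interferon-gamma response genes 8 were higher. The part of these cell types in the differences of the Fc receptor genes was not tested.

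Over all genes 22.4% were called higher in spleen and 32.1% lower, and the signalling genes below the receptors also moved both ways. Of 14 activating genes, 2 were higher and 7 lower in spleen, with a median of -0.29 against -0.17 for all genes. Lat2, an adaptor, was higher by 1.74 and Lcp2 by 0.52, whereas Rac2, a GTPase of the phagocyte oxidase, fell by 1.21 and Prkcd by 1.03. Syk fell by 0.36 (SE 0.11, adjusted p = 0.01664) and Tyrobp, a chain related to Fcer1g, fell by 0.45 (SE 0.10, adjusted p = 0.002919), whereas Lyn gave 0.20 (adjusted p = 0.1378, limma for all). Of 5 inhibitory genes, 2 were higher and 3 lower. Inpp5d fell by 0.32 (adjusted p = 0.01085), Ptpn6 by 0.36 (adjusted p = 0.02475) and the adaptor Dok2 by 1.11, whereas Cblb, a ubiquitin ligase, rose by 0.93 (limma for all).

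Of 9 other receptors that signal through the common gamma chain, 3 were higher and 4 lower. Clec4n (Dectin-2) was higher by 3.01, Ncr1, a receptor of natural killer cells, by 2.99 and Clec4a1 by 1.28. Gp6, the collagen receptor of platelets, fell by 1.63, and Clec4e (Mincle) by 0.83. Receptors of the same chain thus moved in opposite directions. With 22.4% of all genes called higher and 32.1% lower, such a mix was common and is no property of the chain. Of 10 other Fc receptors and Fc-binding proteins tested, 3 were higher and 3 lower, with Fcmr, the receptor for immunoglobulin M, higher by 3.41 and Fcrl1, of B cells, by 0.88.

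Of the members, 5 lie on chromosome 1. In the RefSeq order Fcrla, Fcgr2b, Fcgr4 and Fcgr3 follow each other with 1 predicted gene among them, and Fcer1g lies beyond 7 further genes. From Fcrla to Fcer1g their tissue differences were 1.43, 0.09, 0.17, -0.73 and -0.83. The called genes of this cluster thus did not all share a direction, as Fcrla was higher and Fcgr3 and Fcer1g were lower. Fcgr2b and Fcgr4 between them did not pass the test. Fcrlb, on the other side of Fcrla, gave -0.01 (adjusted p = 0.9793, limma). Fcgr1 lies on chromosome 3 and Fcgrt on chromosome 7. Fcgr2b and Fcgr3 are close in sequence in their outer parts, and whether a probe also bound RNA of the other gene was not tested.

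The second question was whether loss of HDC or STAT6 changed these genes. Genotypes were compared within a tissue over 11 arrays, with genotype and time as additive terms, so the time points served as repeats. HDC-KO spleen lacked its control array and STAT6-KO bone marrow its MI 1 week array. None of the 7 members was called in any of the 4 comparisons by limma, nor by the methods' t-test after Benjamini-Hochberg. In spleen 2.8% of the 26472 genes tested were called for HDC-KO and 1.95% for STAT6-KO, and in bone marrow 0.443% and 4.61% of 27090. At an unadjusted p under 0.05 there were 3 members for HDC-KO and 2 for STAT6-KO in spleen, and 2 and 1 in bone marrow. Over all genes 22.6% and 22.9% in spleen and 21.2% and 22.4% in bone marrow had such a p, so 1 to 3 of 7 members is no result about the members.

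Fcgr1 had the largest genotype values among the activating receptors. In spleen it was at 1.75, 3.11, 1.92 and 1.68 in WT at control, 1, 2 and 4 weeks, at 1.51, 0.77 and 1.16 in HDC-KO at 1, 2 and 4 weeks, and at 1.38, 0.86, 1.17 and 1.86 in STAT6-KO. In bone marrow it was at 0.91, 1.71, 0.89 and 0.55 in WT, at 0.07, -1.13, -0.52 and 0.02 in HDC-KO, and at 0.53, -0.30 and 0.76 in STAT6-KO at control, 2 and 4 weeks. In both tissues every HDC-KO array lay below every WT array, while STAT6-KO overlapped WT at 4 weeks. The differences from WT were -1.02 (SE 0.38, adjusted p = 0.1637) for HDC-KO in spleen, -1.40 (SE 0.37, adjusted p = 0.1385) for HDC-KO in bone marrow, -0.80 (SE 0.34, adjusted p = 0.2117) for STAT6-KO in spleen and -0.70 (SE 0.42, adjusted p = 0.3705) for STAT6-KO in bone marrow (limma). The 4 comparisons share the WT arrays of their tissue. Without MI 1 week, where WT was highest, these became -0.85, -0.93, -0.31 and -0.46. In HDC-KO bone marrow 2.71% of all genes had a larger difference than Fcgr1.

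**Figure D3:**
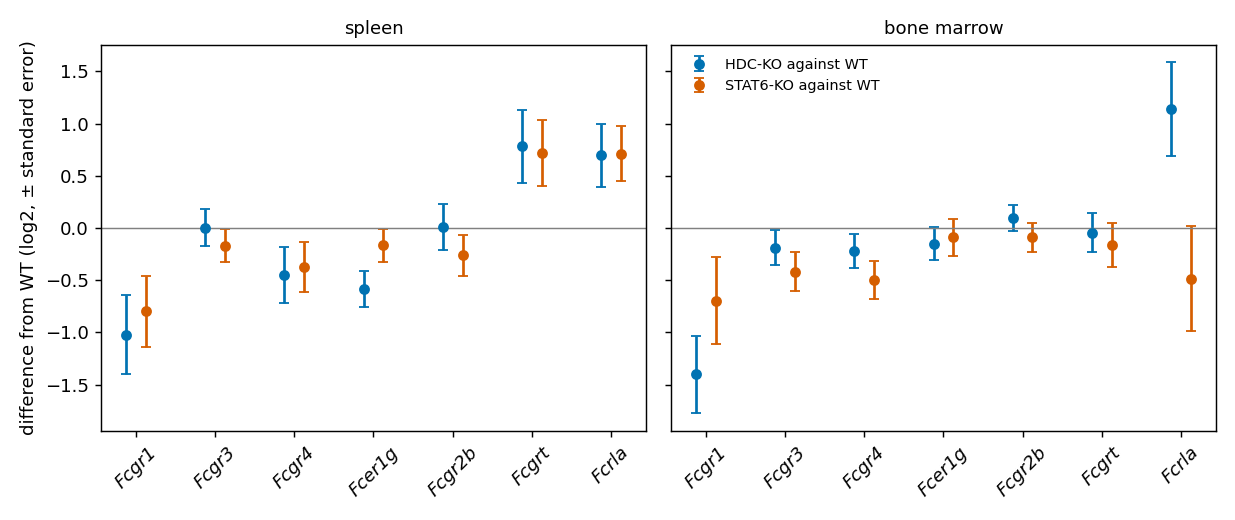
Differences of HDC-KO and STAT6-KO from WT (log2) for each Fc receptor gene, in spleen on the left and bone marrow on the right. Points are limma estimates over the 11 arrays of a tissue and bars are standard errors; Fcgr1 lies below 0 in all 4 comparisons (-1.40 to -0.70), and no member passed an adjusted p of 0.05.

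Fcrla lay above WT in 3 of the 4 comparisons. In bone marrow it was at 1.42, -3.26, 1.43 and 1.42 in WT at control, 1, 2 and 4 weeks, at 2.50, -0.66, 1.53 and 2.20 in HDC-KO, and at -0.10, 0.59 and 1.60 in STAT6-KO at control, 2 and 4 weeks. HDC-KO was above WT at 4 of 4 time points, with a difference of 1.14 (SE 0.45, adjusted p = 0.2168), of which the MI 1 week arrays held the largest part. Without that time point it was 0.65. In spleen the differences were 0.69 (SE 0.30, adjusted p = 0.216) for HDC-KO and 0.71 (SE 0.27, adjusted p = 0.1669) for STAT6-KO, and in STAT6-KO bone marrow -0.49 (SE 0.50, adjusted p = 0.6144, limma for all).

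Fcgrt in spleen was at 1.67, 0.94, 0.76 and 0.36 in WT at control, 1, 2 and 4 weeks, at 2.33, 1.29 and 1.44 in HDC-KO at 1, 2 and 4 weeks, and at 1.08, 2.35, 1.80 and 1.38 in STAT6-KO. After MI every knockout array was above every WT array, whereas at control STAT6-KO was below WT. The differences were 0.78 (SE 0.35, adjusted p = 0.232) for HDC-KO and 0.72 (SE 0.31, adjusted p = 0.2187) for STAT6-KO. Without the control arrays they were 1.00 (adjusted p = 0.04004) and 1.16 (adjusted p = 0.03143, limma for all), past the threshold, where the share of all genes called was also higher, at 4.91% and 3.67%. Fcgrt in bone marrow gave -0.05 for HDC-KO and -0.16 for STAT6-KO. The difference between the genotype effects in the 2 tissues was 0.76 (SE 0.60, adjusted p = 0.625) for HDC-KO and 0.48 (SE 0.60, adjusted p = 0.8034) for STAT6-KO (limma).

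Fcer1g in HDC-KO spleen was below WT at 3 of 3 time points, at 4.70, 3.95 and 3.86 against 5.03, 4.69 and 4.70, with a difference of -0.59 (SE 0.17, adjusted p = 0.1045, limma). Fcgr4 in STAT6-KO bone marrow was below WT at 3 of 3 time points, at 3.16, 2.96 and 3.30 against 3.44, 3.43 and 3.83, with a difference of -0.50 (SE 0.18, adjusted p = 0.1627, limma). Fcgr2b and Fcgr3 lay within 0.42 of WT in all 4 comparisons, without passing the test. In STAT6-KO bone marrow the fitted differences of all 7 members lay below 0, at -0.70 to -0.09, with a median of -0.42 against 0.07 for all genes, none past the threshold. The single arrays were less uniform. Fcgr3 and Fcgr4 were below WT at 3 of 3 time points. Fcer1g and Fcgrt were above WT at 2 of 3, and Fcgr1, Fcgr2b and Fcrla at 1 of 3. No member passed the test that its genotype effect differed between the tissues, with 0.991% of all genes called for HDC-KO and 0.347% for STAT6-KO. No member had an unadjusted p under 0.05 there either.

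The third question was how the genes moved with time after MI. The 3 genotypes served as repeats of a time point, in spleen with 2 control arrays and in bone marrow with 2 MI 1 week arrays. None of the 7 members was called at any time in either tissue by limma, nor by the methods' t-test after Benjamini-Hochberg. At MI 1 week 7.9% of all genes were called in spleen and 0.148% in bone marrow, and at 2 weeks 2.25% and 0. The 0 for bone marrow at 2 weeks stands beside 2025 genes at an unadjusted p under 0.05. At 4 weeks 0 genes were called in either tissue, with 2303 and 5187 genes at an unadjusted p under 0.05. In spleen 2, 1 and 0 members had an unadjusted p under 0.05 at 1, 2 and 4 weeks, and in bone marrow 2, 0 and 3. Over all genes the shares were 27.4%, 23.7% and 8.7% in spleen and 19.7%, 7.48% and 19.1% in bone marrow.

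Fcrla had the largest time values of the members. In bone marrow its level went from 1.42 at control to -3.26 at MI 1 week in WT and from 2.50 to -0.66 in HDC-KO, and at 2 weeks it stood at 1.43 and 1.53. In spleen it was at 1.52 in WT control and 0.44 at 1 week, and at 2.21 in STAT6-KO control and 1.31 at 1 week, while the HDC-KO array at 1 week was at 0.62. The WT MI 1 week arrays also had the lowest share of spots well above background in their tissue. For Fcrla the MI 1 week array was the lowest of its genotype and tissue in all 5 sets that had one. The difference from control was -3.59 (SE 0.60, unadjusted p = 0.0004703, adjusted p = 0.07543) in bone marrow, a size that 0.0443% of genes exceeded, and -1.19 (SE 0.35, adjusted p = 0.07885) in spleen (limma). The adjusted p stayed above 0.05 in all alternatives run, between 0.05023 and 0.6968 in bone marrow.

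B cell markers were low on the same bone marrow arrays, and less clearly so in spleen. The 8 markers together had a summed signal of 4.60 and 7.34 on the 2 bone marrow MI 1 week arrays, against 7.65 to 28.7 on the other 9, and 22.9 to 34.5 on the 3 spleen MI 1 week arrays, against 25.0 to 84.7 on the other 8. The ranges did not overlap in bone marrow and overlapped in spleen, where the median level of the markers went from 0.85 to 1.20 in WT at 1 week while Fcrla went from 1.52 to 0.44. Pax5, the factor that holds B cell identity, fell by 1.91 (SE 0.22, adjusted p = 0.04076, limma) in bone marrow at 1 week, the single B cell marker called there. All 8 markers were well above background on every array. The r of Fcrla with the median level of these markers was 0.93 over 22 arrays after removing the tissue means, 0.84 within spleen and 0.96 within bone marrow. In the same order the T cell markers gave 0.72, 0.90 and 0.84, and the basophil and mast cell markers 0.59, 0.07 and 0.93. The CD11b genes gave -0.64, -0.90 and -0.56. Within a tissue the likeness was thus not particular to the B cell markers. The points share arrays, slides and scaling. The part of B cells in the levels of Fcrla was not tested.

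**Figure D4:**
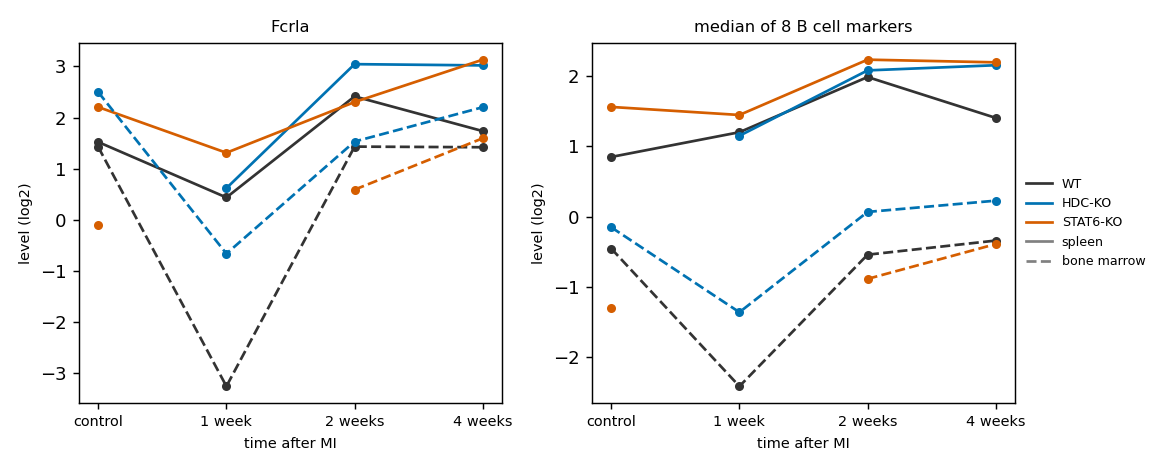
Level of Fcrla (left) and median level of 8 B cell markers (right), log2, at control and 1, 2 and 4 weeks after MI. Each point is 1 array, colours are genotypes, solid lines spleen and dashed lines bone marrow, and gaps are the 2 incomplete arrays; in bone marrow both are lowest in WT at 1 week, at -3.26 and -2.41.

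Fcgr1 after MI went different ways on the arrays of the 3 genotypes, which was not tested. In WT it went from 1.75 to 3.11 at 1 week in spleen and from 0.91 to 1.71 in bone marrow, single arrays without a test of their own. The WT MI 1 week arrays also had the lowest share of spots well above background in their tissue. In STAT6-KO spleen Fcgr1 went from 1.38 to 0.86, and in HDC-KO bone marrow from 0.07 to -1.13. Over the genotypes the difference at 1 week in spleen was 0.47 (SE 0.45, adjusted p = 0.5313, limma), and without WT it was -0.12. The median level of 10 interferon-gamma response genes went from 1.53 to 3.99 in WT spleen and from 0.44 to 2.30 in WT bone marrow over the same interval. It went from 1.41 to 1.83 in STAT6-KO spleen and from 0.87 to 0.34 in HDC-KO bone marrow. None of the 10 was called at 1 week in either tissue. The r of Fcgr1 with that median was 0.83 over 22 arrays and 0.69 after removing the tissue means, and for Fcgr4 it was 0.60 and 0.69. For Fcer1g it was -0.29 and 0.56. For Fcgr2b it was 0.20 and 0.19. With the median of 7 interferon-alpha response genes it was 0.56 and 0.63 for Fcgr1, 0.57 and 0.56 for Fcgr4, 0.19 and 0.49 for Fcer1g and 0.07 and 0.06 for Fcgr2b, so the likeness of Fcgr1 and Fcgr4 was not particular to the interferon-gamma genes. None of the 7 was called at 1 week, with a median difference from control of 2.11 in spleen and 2.17 in bone marrow. A single array stood apart in each tissue. The summed signal of the 7 at 1 week was 32.8, 32.8 and 137 in spleen, against 18.8 to 29.9 at control. In bone marrow it was 20.5 and 211, against 6.81 to 23.3 at control.

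**Figure D5:**
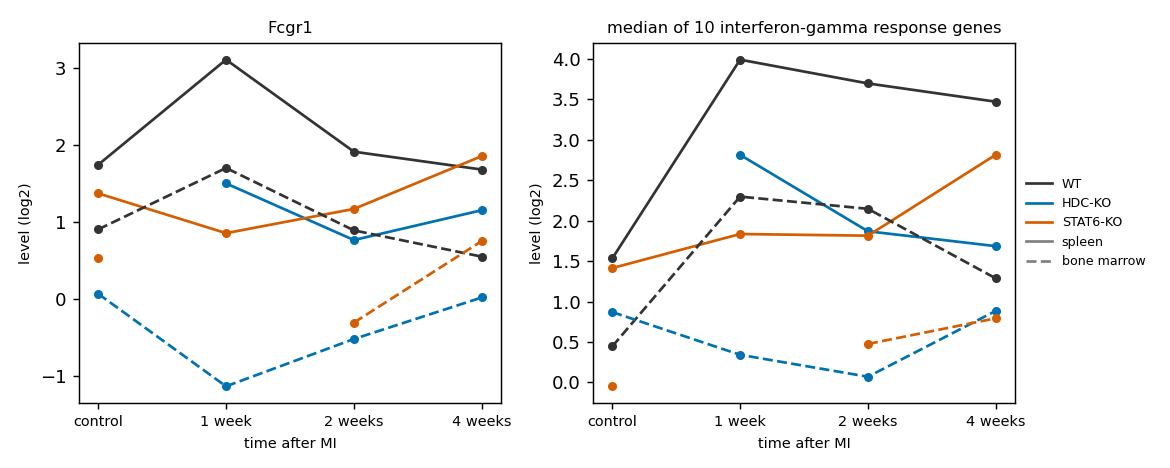
Level of Fcgr1 (left) and median level of 10 interferon-gamma response genes (right), log2, at control and 1, 2 and 4 weeks after MI. Each point is 1 array, colours are genotypes, solid lines spleen and dashed lines bone marrow, and gaps are the 2 incomplete arrays; WT at 1 week is highest in both panels, at 3.11 and 3.99 in spleen.

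In spleen the interferon-gamma response genes also stood lower in the knockouts than in WT, with a median difference of -1.29 for HDC-KO and -1.17 for STAT6-KO, and 1 of 10 called in each. These were Cxcl9, a chemokine, in HDC-KO spleen (-2.01, adjusted p = 0.04541), and Ciita, the activator of class II genes, in STAT6-KO spleen (-0.79, adjusted p = 0.04093, limma for both). The control arrays of WT and STAT6-KO spleen lay close, with summed signals of these genes of 53.1 to 57.7. At MI 1 week the spleen arrays spanned 56.1 to 154, with WT the highest in median level. In bone marrow the median level at control was higher in HDC-KO than in WT, as given above. The interferon-alpha response genes gave medians of -1.90 and -1.08 in spleen, with 0 of 7 called in each. In STAT6-KO bone marrow Cxcl9 was the 1 gene called (-2.60, adjusted p = 0.02973, limma).

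The remaining time values were smaller. Fcer1g was higher at MI 1 week by 0.52 (SE 0.20, adjusted p = 0.1498) in spleen and by 0.55 (SE 0.21, adjusted p = 0.226) in bone marrow, and by 0.56 (SE 0.18, adjusted p = 0.1687) at 4 weeks in bone marrow (limma). Each pair of control and MI arrays of one genotype had that sign. Fcgrt at 4 weeks in bone marrow was 0.82 above control (SE 0.22, adjusted p = 0.1177, limma), higher in 3 of 3 genotypes, at 0.00, 0.39 and 0.13 against -0.22, -0.73 and -1.0 in WT, HDC-KO and STAT6-KO. Fcgr2b at the same time was 0.37 below control (-0.37, SE 0.14, adjusted p = 0.2295, limma). Fcgr3 at 2 weeks in spleen was below control in WT (2.49 to 1.46) and STAT6-KO (2.03 to 1.61), with a difference of -0.66 (SE 0.21, adjusted p = 0.1193, limma). None of these passed the test.

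The genes whose levels most resembled each member over the 22 arrays were ranked among 16645 genes by Pearson r, given here with r after removing the tissue means, as a description over arrays that share slides and scaling. Fcrla was most like Spib, a transcription factor of B cells and plasmacytoid dendritic cells (0.99 and 0.99), then Cpm (0.96 and 0.97) and Ebf1, a B lineage factor (0.96 and 0.98). Fcgr1 was most like the interferon-inducible genes Ifi202b (0.94 and 0.88) and Ifi204 (0.93 and 0.88), then Ms4a6c (0.92 and 0.86). Fcer1g was most like Vamp8, of granule fusion (0.97 and 0.93), Lcp1, an actin bundler of leukocytes (0.96 and 0.91), and Dynlt1f (0.95 and 0.88).

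Fcgr3 was most like Sec14l1 (0.97 and 0.90), 2410018L13Rik (0.94 and 0.85) and Tarm1, a receptor of myeloid cells (0.94 and 0.85). Fcgrt was most like Cul9 (0.97 and 0.87), Nav1 (0.96 and 0.86) and Itgb5, an integrin chain (0.96 and 0.83). Likeness was lower for the members that were not called between tissues. Fcgr4 reached 0.79 with Necap2 (0.815 after removing the tissue means), 0.78 with Unc93b1, a chaperone of Toll-like receptors (0.77), and 0.78 with Sirpb1a (0.77). Fcgr2b reached 0.74 with Ifnar1, a chain of the interferon-alpha receptor (0.76), and 0.73 with Tent5a (0.73). After removing the tissue means the values of Fcgr4 thus lay nearer to those of the called members. Among the members, Fcer1g and Fcgr4 were most alike after removing the tissue means (0.73), and Fcgr1 and Fcgr4 followed (0.57). Fcer1g and the CD11b genes had an r of 0.93, and 0.86 after removing the tissue means.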

How the data were processed

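RNA of CD11b+ cells was hybridised to one-colour Agilent mouse arrays (Cy3), read by Feature Extraction 11.0.1.1. The deposited values are the authors' spot intensities, background-subtracted and not scaled between arrays. The paper names Genespring and the submitters' processing notes name GCRMA for later steps, whose output was not used here. Of 43020 spots a complete array holds that are not controls, those marked as outliers (3055 over 22 arrays, 0 of the members) were left out, spots of a probe were averaged, and log2 signal minus the 75th percentile was taken. Genes with several probes were given by the brightest. The number of arrays limits the precision.

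Tests used limma 3.58.1 in R 4.3.3 (data.table version 1.17.8) over all genes well above background on at least 2 arrays of a fit, called at a Benjamini-Hochberg adjusted p under 0.05: 10 tissue pairs with the pair as a block, 11 arrays per tissue with genotype and time as additive terms, and the tissue difference of each pair for the difference between genotype effects. P-values thus measure the spread between time points, genotypes or pairs, not between mice. The fits were tried on these arrays after the fitted genotype, tissue and time effects were removed and known changes added to some genes. That cannot show how slide effects bear on the calls. Plots used matplotlib 3.10.9 in Python 3.11.15 (pandas 2.3.3, numpy 2.4.6). The methods' t-test is the study's Student test, with its thresholds of fold change over 2 and p under 0.05. The other alternatives were normexp (offset 50, on the median spot signal), quantile and median scaling, a floor, other filters, the mean over probes, fits without the pair block, on 2 genotypes alone, with slide as a random block, or without 1 array, pair, time point or genotype. Leaving out the MI 1 week pairs or the HDC-KO pairs, and the test of time effects between the tissues, were chosen after seeing the data.

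Genes were named by rule: the 7 members, up to the 4 largest called changes in each direction of each list, the partners Syk, Lyn, Tyrobp, Inpp5d, Ptpn6 and B2m, and the 3 genes most like each member among those well above background on at least 11 arrays. The members and lists were chosen with earlier results of these data known. One gene that the rule on likeness names is not reported here. Cd68 and Ly6g had no matched probe. Protein sequences were not used here.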

Additional observations from a re-analysis of the deposited data

Results flagged for a closer look

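Fcgr3 at MI 2 weeks moved in opposite directions in the 2 tissues, on every pair of control and MI arrays that was complete. In spleen it was lower than control by -1.03 in WT and by -0.41 in STAT6-KO, and in bone marrow it was higher by 0.21 to 0.36 in 3 of 3 genotypes. The mean change in spleen was thus below that in bone marrow, with a difference of -0.99. Tested on the 10 pair differences with genotype and time as terms, which was chosen after seeing the data and uses the HDC-KO pairs too, the difference was -0.94 (SE 0.35, unadjusted p = 0.03197, adjusted p = 0.4006, limma) and did not pass the threshold. That fit called 0 of 27659 genes, with 12.3% at an unadjusted p under 0.05. Neither change passed its own test (limma, adjusted p = 0.1193 in spleen and 0.7291 in bone marrow).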

How the results depend on the processing

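Of 176 recomputed counts of members called, 171 equalled the reported one or were within 1.5 times it. Outside the comparison of the tissues every reported count was 0, so most of these set 0 beside 0 and do not measure stability. Of 7 members, 5 were called between spleen and bone marrow with each pair left out in turn (lowest and highest 5), and 3 had a fold change over 2 and p under 0.05 by the methods' t-test (22.5% of all genes). That rule gave 1 member, Fcgr1, for HDC-KO in bone marrow (3.54% of all genes). For HDC-KO in spleen the count was 1 (Fcgrt) on 2 genotypes alone, where 9.95% of all genes were called, and 0 to 1 with each time point left out, as for STAT6-KO in spleen. The 1 was Fcgrt without control. Of 412 recomputed single values, 4 changed sign, none of them called: Fcgr2b between tissues without the MI 1 week pairs (-0.011), Fcrla in STAT6-KO bone marrow without the control arrays (0.026, with -0.85 to 0.026 over the time points left out) and by the methods' t-test, which leaves time out of the fit (0.44), and Fcgr1 at MI 1 week in spleen without WT (-0.12, with -0.12 to 1.11 over the genotypes left out). Fcgr4 between tissues was called after quantile normalization (0.32, adjusted p = 0.04535, limma), and Fcrla was not by the methods' t-test (adjusted p = 0.05165). Without the pair block all 5 tissue calls held, Fcrla at an adjusted p of 0.03606 (limma).

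Counts over all genes moved more. With normexp the genes called for HDC-KO in spleen went from 742 to 6, for STAT6-KO in spleen from 517 to 4, at MI 1 week in spleen from 2092 to 0 and in bone marrow from 40 to 0, and between tissues from 15064 to 12182. Other settings raised counts: MI 4 weeks in bone marrow from 0 to 543 with genes well above background on every array, HDC-KO in spleen to 2604 on 2 genotypes alone, and the difference of the STAT6-KO effect between tissues from 96 to 1444 without the pair block. STAT6-KO in bone marrow went from 1248 to 0 on 2 genotypes alone. Without WT the MI 1 week counts were 0 in both tissues. Without MI 1 week the HDC-KO count in spleen was 0. The cause was not tested. Each comparison rests on 2 to 10 arrays a side from pooled mice, and within a tissue member differences of over 1 on the log2 scale, such as that of Fcgr1, did not pass the test.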
